A study of Mus musculus with 10 samples.

Results

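Apart from Prkg1, the 10 genes described here shut off the photoresponse and reset cGMP and calcium in photoreceptors. They are the membrane guanylate cyclases Gucy2e and Gucy2f, their calcium-sensing activators Guca1a and Guca1b, recoverin (Rcvrn) and rhodopsin kinase (Grk1). The transducin-deactivating complex of Rgs9, Rgs9bp and Gnb5 is also among them. Prkg1, a cGMP-dependent protein kinase, was listed with them. The genes were taken by name, through their Ensembl identifiers, and all 10 were among the 11702 genes of the deposited tables. Retinal RNA of 10 female mice was sequenced, and each library came from another mouse. WT mice injected with DMSO gave 4 libraries (W1 to W4), rd10 mice (B6.CXB1-Pde6brd10/J, intercrossed) injected with DMSO gave 3 (D1 to D3), and rd10 mice injected with halofantrine gave 3 (H1 to H3). Each injection put 1 μL into the vitreous, of DMSO or of 20 μM halofantrine, at P10 and again at P24, and the P36 retinas were analysed. In rd10 mice a germline mutation lies in Pde6b, a subunit of the rod phosphodiesterase that hydrolyses cGMP, and every cell carries it. Sex, tissue and the injection schedule were shared by all groups. The strain of the WT mice was not given in the sources used here. By the labels, batch 2 consists of D3, H2 and H3 and batch 1 of the remaining libraries, so no WT library was in batch 2. The titles also carry set names, 1 for W1 to W3, another for W4, 1 shared by D1, D2 and H1, 1 for H2 and H3 and 1 for D3, and what a set is was not given in the sources used here. Genotype and set thus cannot be told apart within batch 1, nor drug and set within batch 2.

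In a rod or cone, light closes cGMP-gated channels because activated phosphodiesterase destroys cGMP. Recovery needs each step to be reversed: Grk1 phosphorylates the active opsin, Rgs9 with Gnb5 and its membrane anchor Rgs9bp speeds up the GTPase of transducin, and the fall in calcium relieves the brake that recoverin holds on Grk1 and lets Guca1a (GCAP1) and Guca1b (GCAP2) switch on the cyclases. Gucy2e (retGC1) is known from both rods and cones and Gucy2f (retGC2) chiefly from rods. Prkg1 binds cGMP but is best known from smooth muscle and neurons rather than from the light response.

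One WT library stood apart. The library labelled WT W4 held the lowest level of 7 members in the whole series and lay among the rd10 libraries for Guca1a, Rgs9 and Prkg1. The mean log2 CPM of 10 rod markers was 11.78 to 11.83 in W1 to W3 and 7.468 in W4, below the 7.795 to 9.251 of the rd10 libraries. Summed Muller and gliosis markers (10 of 10 in the table) were at 3307 to 3508 CPM in W1 to W3, 6577 in W4 and 5531 to 6773 in rd10, while the 10 cone markers summed to 2095 CPM in W4 against 2128 to 2286 in the other WT and 2116 to 2701 in rd10. W4 was kept as labelled in the fits named "with all WT libraries", and every result against WT is also given without it. Leaving W4 out was chosen with earlier results of these same data known, in which that library lay apart. Calls and p-values without W4 are therefore descriptive. Library depth was 15512212 to 38160436 gene counts with D3 the shallowest, and the members were counted 503 to 68548 times per library.

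The members covered a wide range of levels in the WT retinas W1 to W3. As CPM per kilobase of transcript (CPM per kb, mean ± SD of W1 to W3, n = 3), Guca1b stood at 923 ± 32.0 and Rcvrn at 884 ± 4.61, which overlapped. Guca1a followed at 711 ± 40.5. Grk1 (449 ± 8.41) and Gnb5 (431 ± 16.9) did not differ beyond their spread, and Rgs9 was at 385 ± 17.8. Rgs9bp was at 195 ± 11.1, Gucy2e at 124 ± 7.68, Gucy2f at 55.5 ± 3.14 and Prkg1 at 5.99 ± 0.154. The order was another in the 6 rd10 libraries: Gnb5 (155 ± 36.02), Rcvrn (145 ± 51.8), Guca1a (139 ± 51.7) and Rgs9 (104 ± 38.1) overlapped at the top, and Guca1b, first in WT, was at 48.5 ± 26.8 CPM per kb. Grk1 was at 69.9 ± 30.4, Rgs9bp at 24.7 ± 8.67, Gucy2e at 23.4 ± 6.31, Prkg1 at 9.55 ± 1.76 and Gucy2f, now last, at 4.74 ± 2.07.

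To set genes that fell beside Prkg1, which rose, the 250 bases before the start sites are shown for the members with a match to GGATTA (or TAATCC on the other strand), the core that the photoreceptor homeodomain factors CRX and OTX2 are known to bind. RefSeq promoter windows of build GRCm38.p6 matched 7 of the 10 members, Prkg1 with 2 start sites, which made 8 windows. The matches are in capitals, and each window is written 5′ to 3′ along its gene and ends at the base before the start site.
Gucy2e, chr11:69237023-69237272, minus strand: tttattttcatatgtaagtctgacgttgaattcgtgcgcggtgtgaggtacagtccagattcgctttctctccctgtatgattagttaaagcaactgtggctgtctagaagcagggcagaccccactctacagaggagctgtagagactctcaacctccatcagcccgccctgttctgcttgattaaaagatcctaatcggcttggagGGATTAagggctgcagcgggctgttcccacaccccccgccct
Gucy2f, chrX:142196937-142197186, minus strand: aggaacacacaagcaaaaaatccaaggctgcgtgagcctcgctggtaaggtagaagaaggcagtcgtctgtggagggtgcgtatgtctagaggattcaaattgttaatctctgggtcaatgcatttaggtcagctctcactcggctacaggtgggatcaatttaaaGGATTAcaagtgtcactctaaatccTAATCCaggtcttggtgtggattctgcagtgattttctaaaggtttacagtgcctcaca
Guca1a, chr17:47400607-47400856, minus strand: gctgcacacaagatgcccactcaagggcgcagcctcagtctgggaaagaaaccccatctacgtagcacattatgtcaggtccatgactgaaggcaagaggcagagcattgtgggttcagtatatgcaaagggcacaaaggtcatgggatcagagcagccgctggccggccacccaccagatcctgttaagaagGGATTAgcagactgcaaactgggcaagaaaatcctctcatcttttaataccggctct
Gnb5, chr9:75306038-75306287, plus strand: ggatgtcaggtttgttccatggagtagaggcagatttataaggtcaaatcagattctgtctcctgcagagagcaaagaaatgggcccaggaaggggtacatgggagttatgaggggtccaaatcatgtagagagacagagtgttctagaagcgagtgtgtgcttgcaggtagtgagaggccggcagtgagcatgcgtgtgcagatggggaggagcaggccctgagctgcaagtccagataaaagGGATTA
Prkg1, chr19:31765034-31765283, minus strand: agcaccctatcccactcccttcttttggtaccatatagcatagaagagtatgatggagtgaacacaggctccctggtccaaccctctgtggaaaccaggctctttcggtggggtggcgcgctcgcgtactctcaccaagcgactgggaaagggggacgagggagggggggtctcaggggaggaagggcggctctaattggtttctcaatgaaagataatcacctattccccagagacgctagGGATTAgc

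GGATTA in either orientation was in 5 of the 8 windows and in 6.25% of 32851 promoter windows of the same length. Gucy2f held it 2 times, and 0.295% of all windows held it 2 or more times. TGCTGA or TCAGCA, the half-site that the rod factor NRL is known to bind, was in 1 of the 8 windows (Rgs9, where it begins 147 bases before the start) and in 16.1% of all windows. The Gnb5 match is the last 6 bases before the start site of Gnb5-202, the transcript for the longer protein described further on, and the Prkg1 match begins 8 bases before the start of its main transcript. The Prkg1 window holds the same core as those of the cyclases although Prkg1 moved the other way, and Grk1, which moved with the cyclases, held neither core here. A match of letters is a description and shows no binding.

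**Figure D1:**
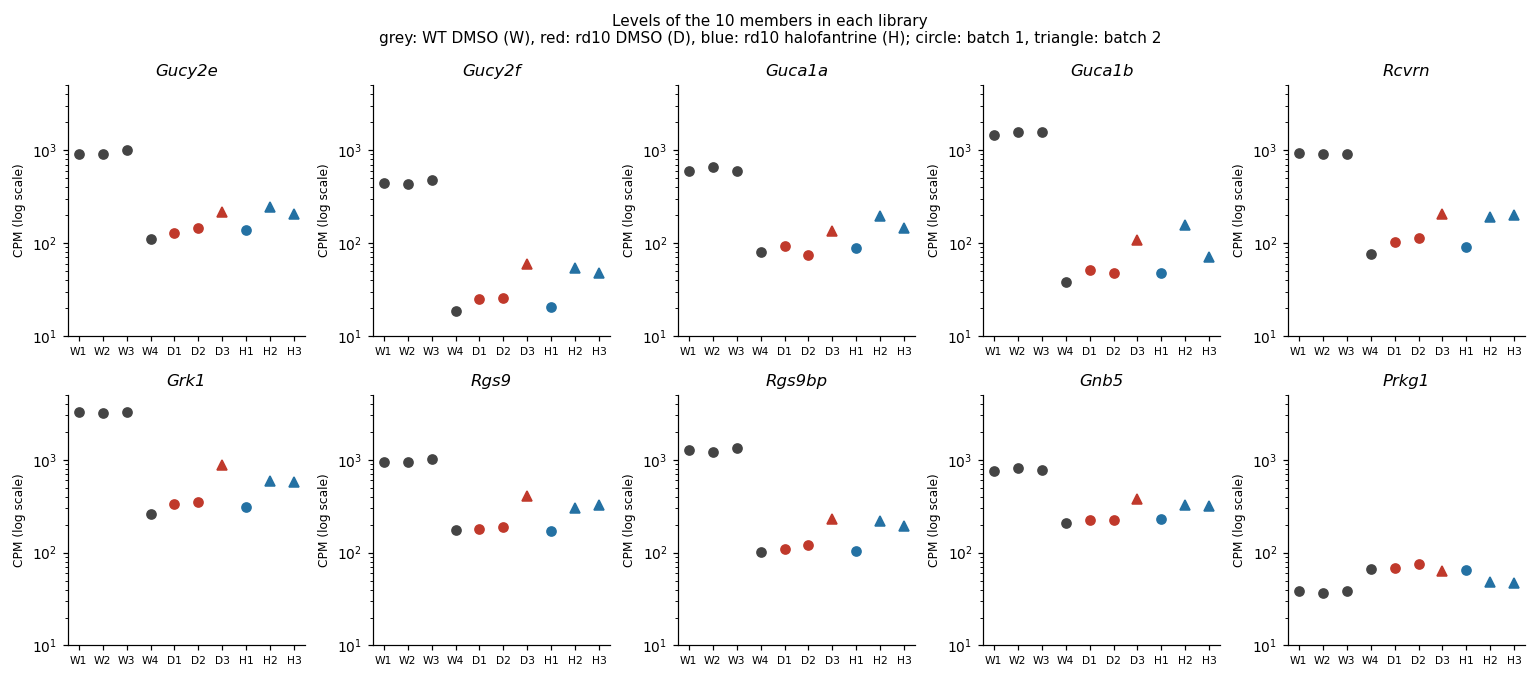
Level of each member in each library, in CPM after TMM scaling on a log axis, with WT DMSO in grey, rd10 DMSO in red, rd10 halofantrine in blue and batch 2 as triangles. The 9 photoreceptor members sit high in W1 to W3 and low in W4 and rd10, where the triangles lie above the circles, and Prkg1 runs the other way.

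The disease comparison asked how far the recovery machinery was lost in DMSO-injected rd10 retina. The cyclases came first. Gucy2e measured 920.1, 902.5 and 1011 CPM across W1 to W3, 109.7 in W4, 127, 145 and 214 in D1 to D3 and 137, 243 and 203 in H1 to H3. Every rd10 library was below W1 to W3, and W4 was below every rd10 library. Gucy2f measured 443, 430.1 and 479 CPM across W1 to W3 and 18.7 in W4. It stood at 24.7, 25.8 and 59.5 CPM in D1 to D3 and 20.5, 53.3 and 47.5 in H1 to H3. Here too the rd10 libraries were all below W1 to W3, and within rd10 the batch 2 libraries were the higher ones.

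Of the calcium sensors, Guca1b had the largest difference of all members. Guca1b measured 1467, 1564 and 1552 CPM across W1 to W3, 37.8 in W4, 51.2, 47.7 and 107.6 in D1 to D3 and 47.1, 158 and 70.2 in H1 to H3. H2 held more than the other halofantrine libraries, H3 included, although both are of batch 2. Guca1a measured 599, 661 and 601 CPM across W1 to W3, 79.9 in W4, 92.8, 73.5 and 135 in D1 to D3 and 89.5, 195 and 144 in H1 to H3. Its W4 value fell within the rd10 range. Recoverin, which holds Grk1 back when calcium is high, measured 924, 915 and 919 CPM across W1 to W3, 76.2 in W4, 102, 114 and 204 in D1 to D3 and 90.5, 191 and 203 in H1 to H3.

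The deactivation enzymes followed. Grk1, the member with the most counts, measured 3252, 3184 and 3305 CPM across W1 to W3, 263 in W4, 334, 355 and 877 in D1 to D3 and 307, 592 and 572 in H1 to H3. Rgs9 measured 955, 937 and 1022 CPM across W1 to W3, 177 in W4, 179, 187 and 403 in D1 to D3 and 172, 304 and 326 in H1 to H3. Its anchor Rgs9bp measured 1285, 1208 and 1354 CPM across W1 to W3, 101 in W4, 110.4, 120.1 and 228 in D1 to D3 and 104, 219 and 194 in H1 to H3. D3 was the highest rd10 library for all 3 of these genes, and it was also the shallowest. Gnb5, the Gβ subunit that stabilises Rgs9, measured 761, 820.5 and 777 CPM across W1 to W3 and 211 in W4. It kept 225, 222 and 376 CPM in D1 to D3 and 229, 322 and 319 in H1 to H3, the shallowest loss of the 9.

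Prkg1 was the exception. It measured 38.6, 37.1 and 39.0 CPM across W1 to W3, 67.4 in W4, 68.6, 74.5 and 63.2 in D1 to D3 and 64.4, 47.8 and 46.9 in H1 to H3. All rd10 libraries lay above W1 to W3, with H2 and H3 nearest to them. Across all 6 rd10 libraries, 9 members were below W1 to W3 without overlap, where 32.3% of genes were, and Prkg1 was above without overlap, where 31.4% of genes were.

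With all WT libraries, edgeR's quasi-likelihood test with Benjamini-Hochberg adjustment called no gene of 11698, lower (0%) or higher (0%), and so no member. All 10 members had an unadjusted p under 0.05 in edgeR, as did 26.6% of all genes (3108). DESeq2 called 7 members lower and 589 of the 11698 genes in either direction, and limma-voom called none. Each member had an adjusted p of 0.187 in this edgeR fit, and log2 fold changes ran from -4.06 for Guca1b to 0.59 for Prkg1. Without W4, the same edgeR test called 29.9% of 11696 genes lower and 32.3% higher, and it called 9 members lower and Prkg1 higher, at adjusted p from 4.42e-05 to 0.0012. Being called therefore did not set the members apart, and their place in the order of fold changes is given instead. Guca1b had the lowest but 6 of all fold changes (rank 7), at a log2 fold change of -4.47 ± 0.33 (SE). Gucy2f ranked 28 at -3.63 ± 0.34 and Rgs9bp ranked 74 at -3.06 ± 0.28. Rcvrn (-2.71 ± 0.26), Grk1 (-2.63 ± 0.37), Guca1a (-2.62 ± 0.21) and Gucy2e (-2.53 ± 0.19) lay between ranks 120 and 144. Rgs9 ranked 276 at -1.91 ± 0.31 and Gnb5 404 at -1.51 ± 0.20, and Prkg1 rose by 0.86 ± 0.07 on the log2 scale. The median over all genes was -0.01.

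Within batch 1 and without W4, where D1 and D2 were set against W1 to W3, 35.9% of 11698 genes were called lower and 36.5% higher, and the same 9 members were lower and Prkg1 higher. The fold changes there were larger for the photoreceptor members, from -4.94 ± 0.08 for Guca1b to -1.81 ± 0.06 for Gnb5, and 0.91 ± 0.06 for Prkg1. In bulk RNA, fewer photoreceptors and less RNA in each photoreceptor cannot be told apart. The rod markers moved with the members: 10 of 10 were lower without W4, with a median log2 fold change of -3.21, and their summed level was 75910 to 79690 CPM in W1 to W3 and 3803 to 11210 in rd10. Their part in the members' loss was not tested.

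The halofantrine libraries were set against the same WT libraries, so these values stand beside the former ones and are no second sample of WT. With all WT libraries 1 gene of 11699 was called lower (0.00855%) and 0% higher, and it was no member. There 9 members had an unadjusted p under 0.05 in edgeR, as did 34.6% of all genes (4050). DESeq2 called 8 members lower and 2221 of the 11699 genes in either direction, and limma-voom called none. Without W4, 36.2% of genes were called lower and 35.7% higher, and the members again gave 9 lower and 1 higher. Guca1b was at -4.06 ± 0.40, Gucy2f at -3.47 ± 0.30, Rgs9bp at -2.89 ± 0.24, Grk1 at -2.73 ± 0.23 and Rcvrn at -2.51 ± 0.26 on the log2 scale. Gucy2e was at -2.28 ± 0.18, Guca1a at -2.12 ± 0.23, Rgs9 at -1.86 ± 0.21 and Gnb5 at -1.44 ± 0.12. Prkg1 was higher by 0.47 ± 0.12 with an adjusted p of 0.0057 in edgeR.

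**Figure D2:**
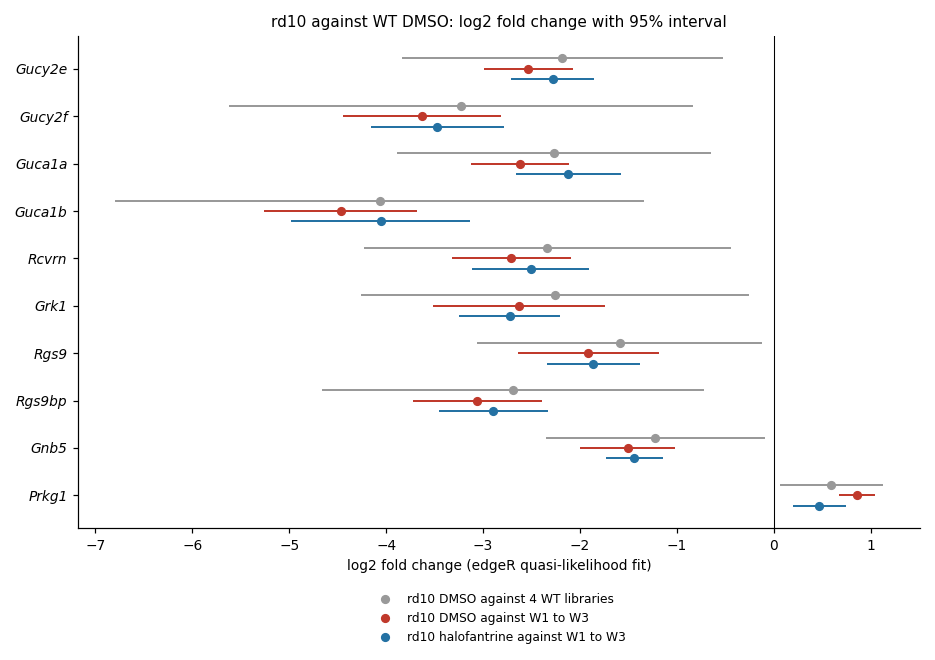
Log2 fold change of each member against WT (horizontal axis, points) with its 95% interval (lines), for rd10 DMSO with all 4 WT libraries (grey), rd10 DMSO against W1 to W3 (red) and rd10 halofantrine against W1 to W3 (blue). The grey intervals are wide since W4 is in them, and the red and blue points run from about -4.47 for Guca1b to 0.86 for Prkg1.

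The members come in pairs, and within each pair one partner was lost more than the other. The ratio of Gucy2f to Gucy2e in CPM was 0.474 to 0.481 in W1 to W3 and 0.15 to 0.278 in rd10. Guca1b exceeded Guca1a in W1 to W3 by a ratio of 2.37 to 2.58 and fell under it in rd10, at 0.488 to 0.811. Rgs9bp to Rgs9 went from 1.29 to 1.34 in W1 to W3 to 0.566 to 0.72 in rd10. W4 held 0.171, 0.474 and 0.569 for the 3 ratios. The rd10 libraries (n = 6) overlapped W1 to W3 in none of the 3, where the ratios of 65% of all pairs of genes did not overlap either, so this does not set the 3 ratios apart.

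With all WT libraries the difference in log2 ratio, rd10 minus WT, was -0.85 for Gucy2f to Gucy2e, -1.38 for Guca1b to Guca1a and -0.78 for Rgs9bp to Rgs9, and the adjusted p was 0.0667 for each (exact two-sided permutation test, 6 against 4 libraries, adjusted over 3 ratios). Without W4 they were -1.22, -1.98 and -1.08, each at an exact adjusted p of 0.0238, the smallest that 6 against 3 libraries can give. W4 was left out because it lay apart in these data, so this p is descriptive and no independent test. Within batch 1 and without W4 the differences were -1.46, -2.10 and -1.09 on the log2 scale, with 3 libraries a side, where no exact p can go below 0.1.

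Set against the mean of the rod markers, members lay on both sides. The mean log2 CPM of 10 rod markers was subtracted from each member's log2 CPM, so a value that falls from WT to rd10 means a deeper loss than that of the rod list. Without W4, Guca1b fell by 1.06 and Gucy2f by 0.32 beyond the rod markers. Rgs9bp stood 0.30 higher relative to them, Grk1 0.56, Rcvrn 0.66, Gucy2e 0.90, Guca1a 0.92, Rgs9 1.38 and Gnb5 1.84, and Prkg1, which rose itself, 4.001. None of the 10 overlapped between rd10 and W1 to W3 (exact adjusted p of 0.0238 each, over 6 rd10 and 3 WT libraries). Since W4 was left out for lying apart in these data, that p is descriptive too. Over all genes 98.8% lay above W1 to W3 on this measure without overlap and 0.171% below, so the 8 members that stood higher did what nearly all genes did, and Guca1b and Gucy2f were among 20 genes that stood lower. With all WT libraries the signs were the same and none passed (exact permutation test, adjusted p 0.109 to 0.419, adjusted over 10 members). The differences within batch 1 without W4 kept these signs, from -1.02 for Guca1b to 4.81 for Prkg1. The 10 rod markers themselves fell by unequal amounts, and the fold changes of Gucy2f, Rgs9bp, Rcvrn, Grk1, Guca1a and Gucy2e without W4 lie between those of the rod markers Nrl (-3.93) and Sag (-2.40). Of the photoreceptor members, Guca1b lies below both, and Rgs9 and Gnb5 lie above both.

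**Figure D3:**
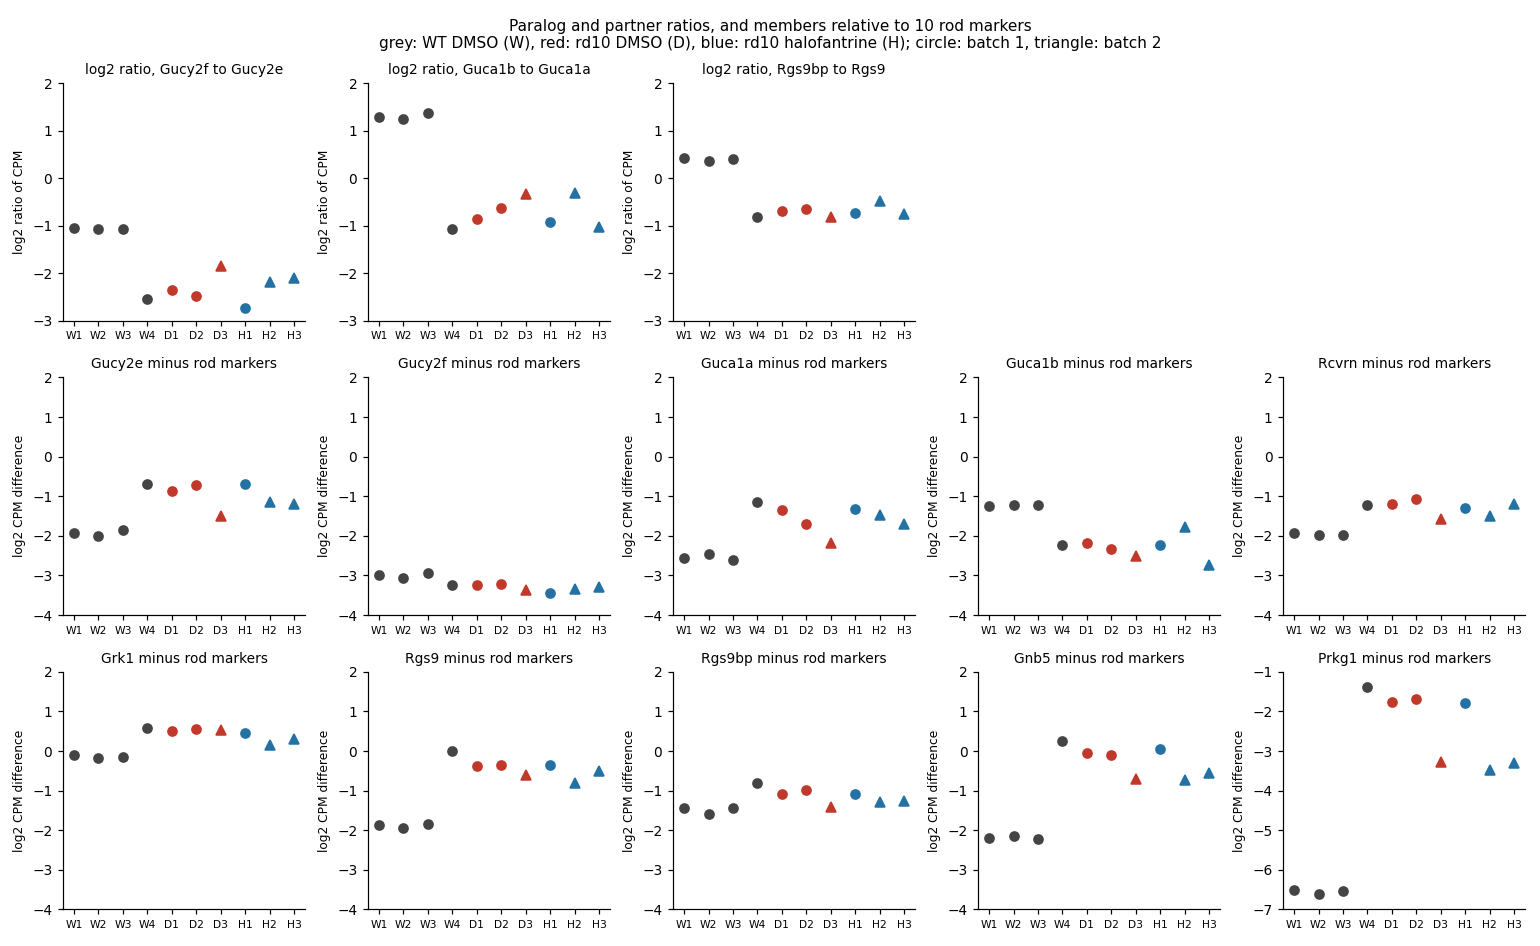
Log2 ratios of CPM for 3 pairs of members (top row) and log2 CPM of each member minus the mean log2 CPM of 10 rod markers (lower rows), by library; colours and symbols as in the plot of levels. The 3 ratios are lower in W4 and all rd10 libraries than in W1 to W3, and against the rod markers only Guca1b and Gucy2f are lower in rd10 than in W1 to W3.

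Several members have more than 1 product, and the estimated counts per transcript followed these. With all WT libraries 0% of 60528 transcripts were called lower and 0.00165% higher in rd10 DMSO, and none of the 26 member transcripts tested was called. Without W4, 7.52% of 57733 transcripts were called lower and 7.98% higher, and of the member transcripts 22 were lower and the 2 of Prkg1 were higher. Gnb5 has 2 main products of different length. Gnb5-202 codes for the form of 395 residues, the long Gβ5 known as the partner of Rgs9 in photoreceptor outer segments, and Gnb5-206 starts 7848 bases downstream and codes for the form of 353 residues found more widely in neurons.

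Gnb5-202 measured 418, 474 and 425 CPM across W1 to W3, 82.7 in W4, 104, 95.3 and 175 in D1 to D3 and 109.6, 163 and 155 in H1 to H3. Gnb5-206 measured 205, 205 and 217 CPM across W1 to W3, 116 in W4, 111, 112 and 151 in D1 to D3 and 108, 144 and 145 in H1 to H3. The long form was thus the main one in W1 to W3, and the levels of both forms lay near each other in rd10. Without W4, Gnb5-202 fell by 1.83 ± 0.26 (SE) on the log2 scale (edgeR adjusted p = 0.00712) and Gnb5-206 by 0.76 ± 0.14 (edgeR adjusted p = 0.019). With all WT libraries they were at -1.51 and -0.59 and did not pass. As shares of all Gnb5 counts, Gnb5-202 took 60.7% ± 1.61 in W1 to W3 (SD, n = 3), 45.7% ± 3.33 in rd10 DMSO and 48.4% ± 1.23 in rd10 halofantrine, and Gnb5-206 took 28.9% ± 1.72, 47.0% ± 4.09 and 45.2% ± 1.49. The shares of the 6 rd10 libraries did not overlap those of W1 to W3 for either form, where 6.35% of 44742 transcript shares lay wholly below and 4.15% wholly above (transcripts with a mean count of at least 10, in genes with 2 or more of them). This pair was picked after its values were seen, so the shares carry no test, and reads common to both forms were divided between them by the authors' estimation. An antisense gene, Gm19531, overlaps 248 of the 3115 exon bases of Gnb5.

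**Figure D4:**
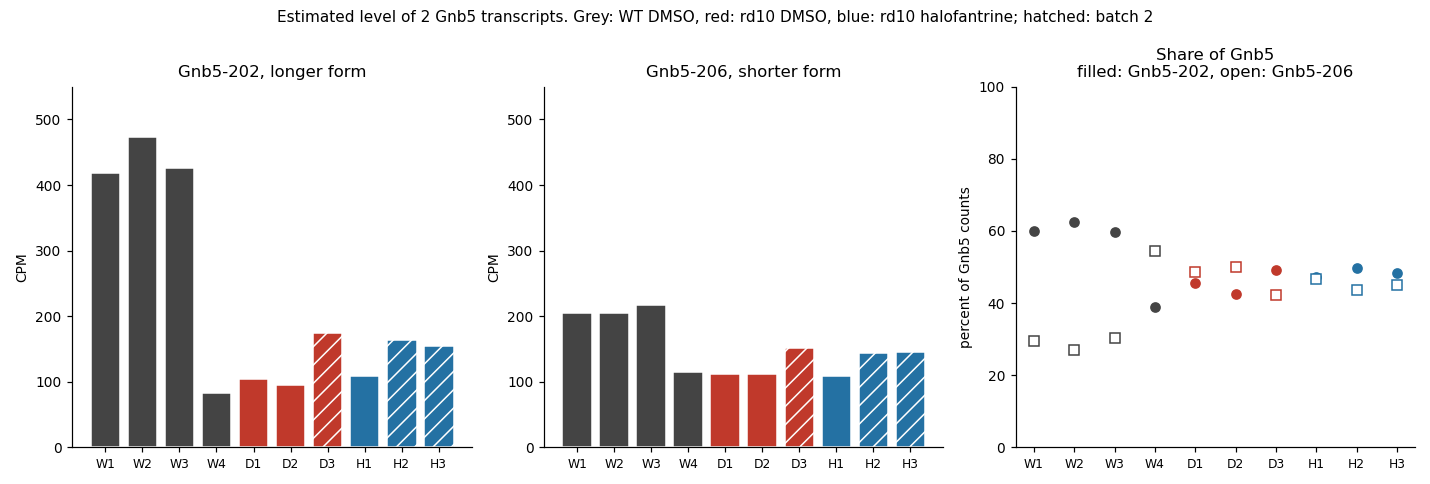
Estimated CPM of Gnb5-202 (long form) and Gnb5-206 (short form) by library as bars from 0, and their share of all Gnb5 counts as points (filled long, open short); WT DMSO grey, rd10 DMSO red, rd10 halofantrine blue, batch 2 hatched. The long form takes about 60.7% of the gene in W1 to W3 and 42.42% to 49.68% in rd10.

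The other genes kept their main product. Rgs9-204, which codes for the 484 residues of the retinal form RGS9-1, held 72.25% to 74.92% of Rgs9 in W1 to W3 and 74.52% to 76.8% in rd10. Rgs9-201, with 675 residues the long form known from striatum, held 1.05% to 2.52% in rd10 and 1.88% to 2.26% in W1 to W3. Prkg1-201, the Iα form of 671 residues, held 85.73% to 89.53% of Prkg1 in W1 to W3 and 81.18% to 87.99% in rd10, the rest being mostly the Iβ form of 686 residues. Grk1-202 held 89.95% to 90.54% of Grk1 in W1 to W3 and 92.84% to 94.4% in rd10. The minor Grk1-201 held 3.14% to 3.51% in W1 to W3, 1.72% in W4 and 0.04% to 1.27% in rd10, wholly below as were 6.35% of shares, and its difference without W4 was -6.54 ± 0.11 on the log2 scale (edgeR adjusted p = 4.62e-05) against -2.51 ± 0.38 for Grk1-202 (edgeR adjusted p = 0.00908). That gap is wider than the one between the Gnb5 forms. Both Grk1 transcripts code for 564 residues and are 7425 and 7431 bases long, so the division of reads between them is uncertain.

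The rest of the pathway, from lists that share genes with the markers, is given list by list. The counts in this paragraph are of edgeR's test without W4, since with all WT libraries none of these genes passed (adjusted p at least 0.187). They are to be read against the 29.9% of all genes called lower and 32.3% called higher in this fit. All 11 of the rod cascade were lower, with a median of -3.13 against -0.01 over all genes, among them the transducin subunits Gnat1 (-3.655 ± 0.40) and Gnb1 (-2.90 ± 0.25) and the arrestin Sag (-2.40 ± 0.35). Of the 11 of the cone cascade 2 were lower and 5 higher, within 2 genes of those shares. Opn1sw, the short-wave cone opsin, was at -1.13 ± 0.32 and Gnat2 at -0.21 ± 0.07, and Gnb3 (0.71 ± 0.08) and the exchanger Slc24a2 (0.81 ± 0.08) were higher. Of 9 modulators of cyclase, kinase and transducin 5 were lower, such as phosducin (Pdc, -3.30 ± 0.30) and Cabp4 (-2.72 ± 0.28), and 2 were higher, such as Calm2 (0.34 ± 0.06).

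The relatives of Rgs9 ran against it. All 6 of the R7 RGS family and its anchors were higher, among them Rgs7 (0.58 ± 0.11), Rgs7bp (0.67 ± 0.07), Rgs6 (0.92 ± 0.08) and Gpr179 (1.02 ± 0.12), the anchor known from bipolar cells. Of 7 GRK and beta-arrestin genes Grk4 was lower (-0.51 ± 0.11) and 3 were higher, Arrb1 (0.87 ± 0.06) and Grk3 (0.96 ± 0.08) among them, while Arrb2 was at 0.01 ± 0.10, so these counts too were within 2 genes of the shares over all genes. Of 10 other genes of cGMP signalling 8 were tested and 7 were higher. Among these were the soluble cyclase subunit Gucy1a1 (0.91 ± 0.06), Nos1 (0.71 ± 0.16) and the phosphodiesterase Pde2a (1.61 ± 0.17), while Gucy1a2 (0.24 ± 0.11) did not pass. Of 6 neuronal calcium sensors, the family of recoverin, 5 were higher, such as Ncald (0.75 ± 0.09), Ncs1 (0.74 ± 0.11) and Hpca (0.64 ± 0.11), and Hpcal1 was lower (-0.60 ± 0.08). Of the markers of other cells in the same fit, where 32.3% of all genes were higher, 5 of 8 were higher for bipolar cells (1 was lower), 8 of 10 for amacrine and ganglion cells, 10 of 10 for Muller cells and gliosis, 4 of 4 tested for microglia, 4 of 10 for cones (2 were lower) and 0 of 5 tested for RPE and lens, and their part in these rises and in that of Prkg1 was not tested. Of 7 mural and smooth muscle markers only Pdgfrb and Rgs5 were in the table, and they summed to 93.5 to 106 CPM in W1 to W3, 143 in W4 and 146 to 156 in rd10.

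By Pearson correlation of log2 CPM over the 10 libraries, the genes most like Gucy2e were Nxnl1 (r = 0.9988), Fam57b (0.9985) and Gm9918 (0.9984), and those most like Gnb5 were Prkab1 (0.9988) and Pex5l (0.998). Those most like Prkg1 were D430019H16Rik (0.9856), Dcc (0.9841) and Erbb4 (0.9829). The libraries fall into W1 to W3 and the rest, and this split gives any gene that follows it a high r.

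The comparison of halofantrine with DMSO in rd10 asked whether the drug moved these genes. No member passed, and edgeR called 0% of 11692 genes lower and 0% higher, with 557 genes at an unadjusted p under 0.05; DESeq2 called 3 genes and limma-voom 0, none of them members. The libraries of the 2 groups overlapped for all 10 members, where 6.18% of genes had halofantrine wholly below DMSO and 6.92% wholly above. Guca1a had the largest difference of the 10, 0.51 with a 95% interval from -0.22 to 1.24 on the log2 scale (edgeR adjusted p = 0.883). Guca1b was at 0.42 (-0.71 to 1.56), Gucy2e at 0.26 (-0.32 to 0.85), Rcvrn at 0.21 (-0.63 to 1.05) and Rgs9bp at 0.18 (-0.64 to 0.99). Gucy2f (0.16, -0.88 to 1.19), Gnb5 (0.08, -0.46 to 0.62), Rgs9 (0.06, -0.78 to 0.91) and Grk1 (-0.09, -1.06 to 0.88) lay nearer to 0. With 3 libraries a group and no batch term, any change inside an interval remained compatible with the data for that gene.

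Prkg1 was the only member with an unadjusted p under 0.05 in edgeR, at -0.38 (-0.69 to -0.07), and did not pass (edgeR adjusted p = 0.883). It was lower with halofantrine in each batch without overlap, as were 5 other members (Gucy2f, Rcvrn, Grk1, Rgs9 and Rgs9bp), where 18% of genes were lower in each batch in this way and 18.5% higher. With 1 library against 2 in a batch, these orders carry no test. H1 (64.4 CPM) was below D1 and D2, and H2 (47.8) and H3 (46.9) were below D3 (63.2).

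The batches were not balanced over the drug, and the members differed between batches. Within the 6 rd10 libraries and with treatment as a term, edgeR called 1.55% of 11698 genes lower and 3.09% higher in batch 2, and it called 8 of the 10 members higher. Gucy2f was higher by 1.27 ± 0.08 (SE) on the log2 scale, Grk1 by 1.14 ± 0.09, Rcvrn by 1.02 ± 0.07, Rgs9 by 1.00 ± 0.07, Rgs9bp by 0.98 ± 0.07, Guca1a by 0.81 ± 0.14, Gucy2e by 0.68 ± 0.09 and Gnb5 by 0.62 ± 0.07. Guca1b (1.20 ± 0.28, edgeR adjusted p = 0.0581) and Prkg1 (-0.32 ± 0.07, edgeR adjusted p = 0.0582) did not pass. All 9 photoreceptor members were higher in each batch 2 library than in any of batch 1, where 14.6% of genes were, and Prkg1 was lower in each, where 13.2% of genes were. All 10 rod markers were called higher in batch 2 as well, with a median of 1.23, and 2 of 10 cone markers. What the batches differ in was not given in the sources used here.

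The calls depended on single libraries for 3 members: Guca1a lost its call without D2 (edgeR adjusted p = 0.0704) or D3 (0.124), Gucy2e without D3 (0.0773), and Guca1b was called without H2 (0.0282) or H3 (0.009). With all 10 libraries in the fit, W4 included, no member was called.

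With batch as a term, the drug differences of several members changed sign. Gucy2f went to -0.27 (95% interval -0.45 to -0.10), Rgs9 to -0.22 (-0.39 to -0.06), Rcvrn to -0.15 (-0.33 to 0.02), Rgs9bp to -0.14 (-0.30 to 0.01) and Gnb5 to -0.10 (-0.25 to 0.06). Grk1, negative before, went to -0.38 (-0.60 to -0.16). Guca1a (0.22, -0.12 to 0.55), Gucy2e (0.03, -0.17 to 0.24) and Guca1b (0.01, -0.64 to 0.66) stayed above 0, and Prkg1 was at -0.28 (-0.46 to -0.11). No member and no gene was called by edgeR in this fit either (1943 genes with an unadjusted p under 0.05, lowest adjusted p 0.269).

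Within batch 1, H1 minus the mean of D1 and D2 on the log2 CPM scale was -0.30 for Gucy2f, -0.25 for Rcvrn, -0.17 for Grk1 and 0.12 for Guca1a. Within batch 2, the mean of H2 and H3 minus D3 was -0.24, -0.05, -0.59 and 0.31 for these genes, with 3 libraries a batch and so no test within one. Whether the drug difference itself differed between batches was tested by an interaction term in edgeR. H1 and D3 are each the only library of their treatment and batch, so the fit takes them to vary like the others. Grk1 had the lowest adjusted p of the 10 (0.0901, -0.43 ± 0.09 on the log2 scale), and no member passed.

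**Figure D5:**
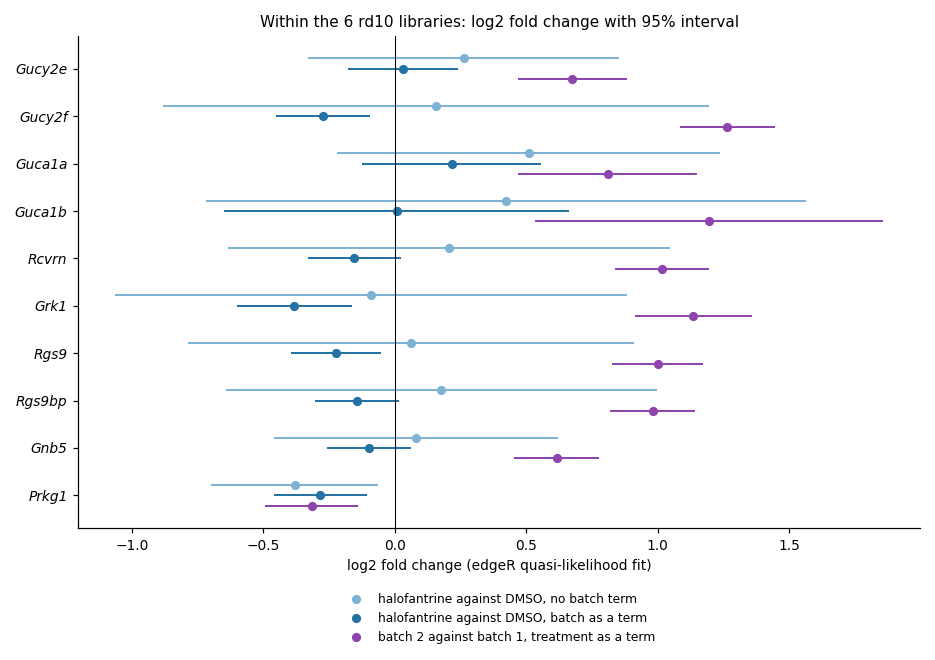
Log2 fold changes of each member within the 6 rd10 libraries (points) with 95% intervals (lines): halofantrine against DMSO without a batch term (light blue) and with it (dark blue), and batch 2 against batch 1 with treatment as a term (purple). The batch differences lie to the right of the drug differences for the 9 photoreceptor members, up to 1.27 for Gucy2f.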

How the data were processed

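Retinal RNA of 10 mice was analysed. The authors made stranded mRNA libraries, used Kallisto on Ensembl mouse transcripts and imported its output with tximport. They deposited estimated counts per transcript and per gene, unscaled. The deposited CPM table is a signal, in which each library's gene counts are divided by a single factor, and its columns sum to 943804 to 1127682, so CPM were computed anew here. A deposited table of the authors' own drug comparison (fold changes and p-values) was left out.

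Estimated counts were rounded, filtered by filterByExpr, scaled by TMM and tested with the quasi-likelihood test of edgeR 4.0.16 in R 4.3.3, adjusted over all genes at 0.05. Log2 CPM used a prior count of 2. Ratios were compared by exact permutation (SciPy 1.17.1). Alternatives were DESeq2 1.42.0, limma-voom (limma 3.58.1), DESeq2 size factors, no filter, all libraries, library size only, a pseudocount of 0.5 CPM, a batch term and leaving out each library. The fits were tested on simulated counts with known changes. That simulation held no outlying library and no batch difference, so it does not cover the effect of W4 or of batch. Chi-square per gene between libraries of a group ran from 4.48 to 431, so none was a copy of another in its group. Libraries of different groups, W4 and rd10 among them, were not compared in this way. Libraries were numbered in label order, which pairs nothing. The labels name build GRCm39. Transcript names, lengths and overlaps are from GENCODE M21 on GRCm38, which held 97.4% to 97.7% of transcript counts.

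The members and lists were chosen with earlier results of these data known. Named genes are all members, the 2 highest and 2 lowest fold changes of each pathway list in rd10 DMSO against all WT libraries, and the 3 genes most correlated with Gucy2e, Gnb5 and Prkg1; 2 genes these rules select are not reported here. Nrl, Pdgfrb and Rgs5 were named from the marker lists after their values were seen.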

Additional observations from a re-analysis of the deposited data

Results flagged for a closer look

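All 10 members were flagged because 1 of the 4 WT libraries, the library labelled WT W4, was far from the other 3. The gap between W4 and its nearest neighbour, as a share of the range of the WT libraries, was 0.879 for Gucy2e, 0.893 for Gucy2f, 0.893 for Guca1a, 0.937 for Guca1b, 0.989 for Rcvrn, 0.96 for Grk1, 0.899 for Rgs9, 0.884 for Rgs9bp and 0.902 for Gnb5, with W4 lowest, and 0.938 for Prkg1, with W4 highest. The log2 ratios were flagged in the same way, at 0.985 for Gucy2f to Gucy2e, 0.948 for Guca1b to Guca1a and 0.951 for Rgs9bp to Rgs9, with W4 lowest. The critical value of Dixon's test for 4 samples is 0.829, and chance passes it in about 1 in 20 groups. The 13 values come from the same 4 libraries and are not independent of each other.

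Gnb5 was flagged because its halofantrine library lay above the DMSO libraries in batch 1 (log2 difference 0.040) and its halofantrine libraries lay below the DMSO library in batch 2 (-0.23). The interaction term of edgeR for this gene had an adjusted p of 0.142.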

How the results depend on the processing

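Leaving out W4, itself a choice made with earlier results of these data known, decided the calls against WT. Without it, members called lower in rd10 DMSO went from 0 to 9 and called higher from 0 to 1, and leaving out any other library gave 0 of each. The same range, 0 to 9 lower and 0 to 1 higher, held for rd10 halofantrine against WT. DESeq2 called 7 and 8 members lower in these comparisons and none higher. Within batch 1 without W4, an alternative chosen after seeing the data, 9 were lower and 1 higher. Genes called against WT were 0 with edgeR and 589 with DESeq2 for rd10 DMSO, and 1 and 2221 for halofantrine. Member transcripts called ranged from 0 to 22 lower and 0 to 2 higher over the libraries left out, the highest being without W4. The log2 ratios passed only without W4. Over the libraries left out they ranged from -1.22 to -0.72 for Gucy2f to Gucy2e, -1.98 to -1.16 for Guca1b to Guca1a and -1.08 to -0.67 for Rgs9bp to Rgs9, the lowest being without W4.

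For batch 2 against batch 1, DESeq2 called 1 member lower (Prkg1), the fit with all 10 libraries called 0 higher, and genes called were 0 in that fit, 91 (without D3) to 2638 (without H1) over the libraries left out, 542 with edgeR and 1419 with DESeq2.

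For halofantrine against DMSO no setting called a member (adjusted p 0.269 to 1.0). With batch as a term the sign turned for Gucy2f (-0.27), Rcvrn (-0.15), Rgs9 (-0.22), Rgs9bp (-0.14) and Gnb5 (-0.10), and under limma-voom for Grk1 (0.0014). Leaving out 1 library gave, from lowest to highest, -0.094 to 0.69 for Gucy2f, -0.22 to 0.90 for Guca1b, -0.33 to 0.51 for Grk1, -0.14 to 0.55 for Rgs9, -0.030 to 0.59 for Rgs9bp and -0.049 to 0.38 for Gnb5, and left the sign of Gucy2e, Guca1a, Rcvrn and Prkg1. The causes were not tested. No paired analysis was possible because the labels name no mouse or litter shared by 2 libraries, and the only set name shared by 2 groups is that of D1, D2 and H1. Depth limits little here: the lowest count of a member in a library was 503.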
